A study of Mus musculus with 15 samples.

Results

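SREBP1, the product of Srebf1, and the enzymes of fatty acid synthesis were followed over 1 circadian day in mouse liver by ribosome profiling, which sequences the mRNA fragments that ribosomes protect. The members were Srebf1, Fasn, Acaca, Acacb, Acly, Scd1, Elovl6, Me1, Thrsp and Pnpla3, chosen by gene symbol. These 10 genes are 10 of 20192 named genes and hold 12 of the 28167 RefSeq transcripts that were counted. The mice were wild-type C57BL/6N males of 8 to 10 weeks, kept for 2 weeks in 12 h of light and 12 h of darkness. They were then moved to constant darkness, and by the study's methods sampling over 1 day began 24 h after this move. Whole livers of 2 untreated mice were taken at each of 7 circadian times, every 4 h from CT0 to CT24, which gives 14 libraries and groups of n = 2. The name of the last pair gives CT24 and another label CT00, a difference to which a 24 h cosine is blind.

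Fatty acid synthesis turns citrate into palmitate in the cytosol: ATP citrate lyase releases acetyl-CoA, acetyl-CoA carboxylase makes malonyl-CoA, and fatty acid synthase builds the chain with NADPH. SREBP1 is made as a membrane protein of the endoplasmic reticulum, which SCAP escorts to the Golgi for cleavage and INSIG proteins hold back. Its released domain enters the nucleus and activates the genes of these enzymes, and in liver it is known as the factor through which insulin and feeding raise lipid synthesis.

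The libraries held 40593197 to 90458783 counts, with a median of 56446208. The major urinary protein (Mup) transcripts took 42.1% to 70.7% of them, so values are given as CPM, counts per 1000000 after TMM scaling, which sets libraries to a common level by the bulk of transcripts. TMM moved the libraries by -0.44 to 0.55 on the log2 scale relative to their total counts. The 6 hepatocyte markers summed to 33299 to 46694 CPM in every library, and 4 of the 5 adipocyte markers (Adipoq, Lep, Plin1 and Retn) were at 0 in 9 to 12 libraries. The fifth, Cfd, was at 0 in 5 and reached 2.75 CPM. CT20 replicate 2 stood apart by its pancreatic acinar markers, 5 of 5 with reads and 2426 CPM in sum, where the median library had 7.03 CPM. Markers of Kupffer, sinusoidal endothelial, stellate and bile duct cells (5 each, all with reads) had their lowest mean sums at CT16, with 74.3, 93.6, 102 and 11.2 CPM, against 79.9 to 101, 116 to 126, 116 to 146 and 15.3 to 19.9 CPM at the other times. Srebf1, Thrsp, Elovl6 and Acaca had their highest means at CT16, and the part of these cells in that was not tested. In CT16 replicate 2 every nonzero count was an even number. The number of genes passing the rhythm test is also given without either library. In whole tissue, fewer cells of a type and less RNA per cell cannot be told apart.

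Footprints on 7 of the 9 genes with enough reads followed a 24 h rhythm. All 7 had their fitted peak between CT15 and CT23, a window within the subjective night. The peaks ran from CT16.8 for Elovl6 to CT22.0 for Acacb. The test was edgeR's quasi-likelihood F test of a cosine and a sine of 24 h, and a transcript passed with a Benjamini-Hochberg adjusted p under 0.05 over 17299 transcripts, those averaging 10 counts or more. Of all transcripts tested, 11.3% passed. Of the 1947 that did, 37.3% peaked between CT15 and CT23. The median fitted peak-to-trough difference was 1.77 on the log2 scale over the 9 genes and 0.44 over all transcripts. Srebf1 itself and Scd1 did not pass, and Pnpla3 was below the count minimum. Without CT20 replicate 2 the count of genes was 6, with Me1 lost, and without CT16 replicate 2 it was 7.

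**Figure D1:**
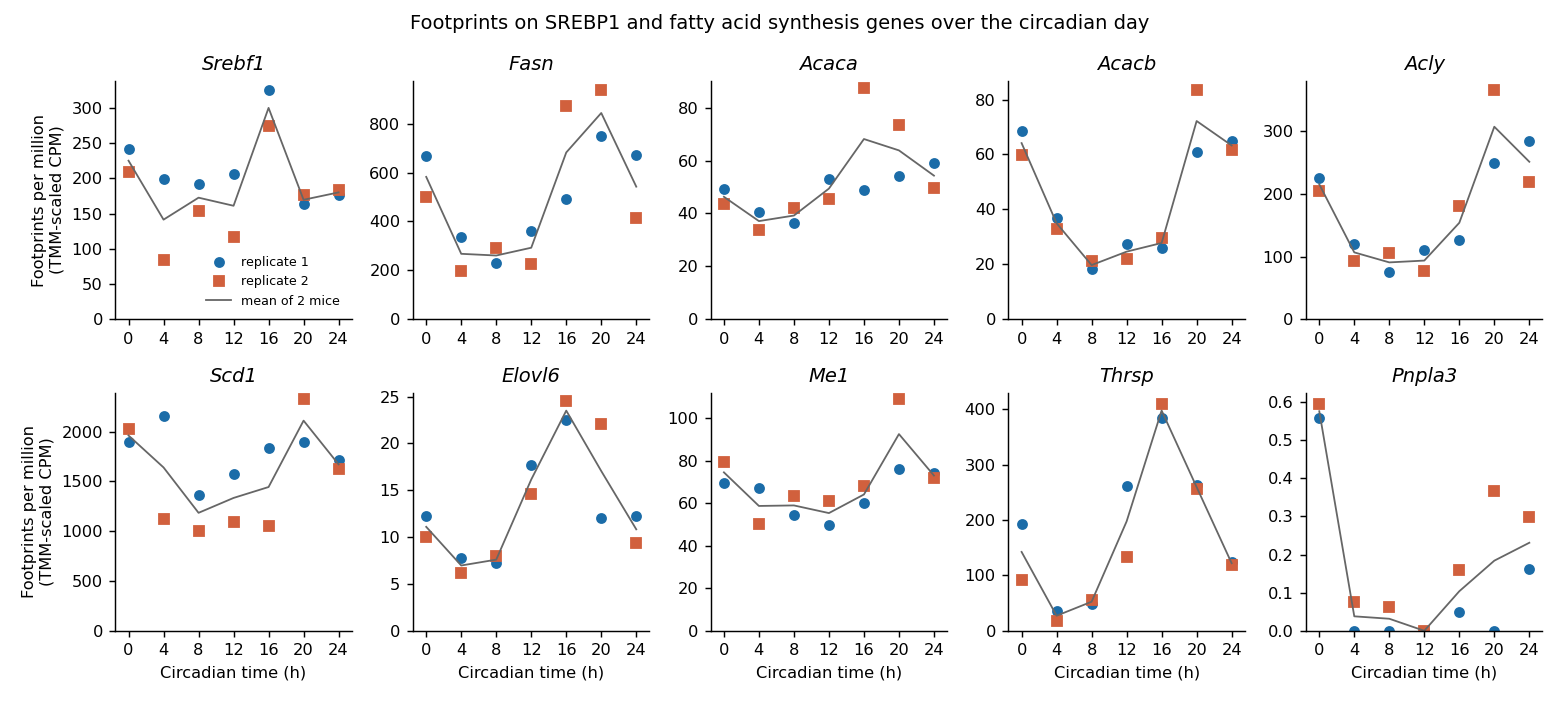
Footprints on each of the 10 genes, in TMM-scaled CPM (linear axes from 0), against circadian time in hours. Circles and squares are the 2 replicates of a time, different mice at each time, and the line joins their means. Thrsp, Elovl6 and Fasn were lowest at CT4 or CT8 and highest at CT16 or CT20.

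The regulator was taken first. Srebf1 had 241 and 209 CPM at CT0, 199 and 83.6 at CT4, 192 and 153 at CT8, 206 and 116 at CT12, 326 and 274 at CT16, 163 and 176 at CT20, and 176 and 184 at CT24. Both mice at CT16 were above each of the other 12 libraries and both at CT0 above the remaining 10, which overlapped. The mean at CT16 was 299.9 ± 36.7 CPM (SD, n = 2), 2.12 times the 141 ± 81.6 CPM at CT4, where the replicates differed most. A cosine described this poorly: edgeR gave an adjusted p of 0.291, with a fitted peak at CT17.6 ± 1.84 h (SE) and a fitted swing from trough to peak of 0.67 (log2). Leaving out each library in turn kept the adjusted p between 0.19 and 0.59.

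Because a rise at a single time can escape a cosine, the 7 times were also compared as groups. In this edgeR test 7.08% of the transcripts passed, and of the 9 genes 5 passed (Thrsp, Acacb, Acly, Elovl6 and Fasn). Srebf1 did not, with an adjusted p of 0.207. It passed after scaling by total counts, with 0.0226, and without CT4 replicate 1, with 0.0131. The call on Srebf1 thus rested on 1 library and on the scaling.

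The Srebf1 footprints lay almost wholly in the coding sequence. The counted transcript, NM_011480 (chr11:60199084-60220627, minus strand, 19 exons, GRCm38.p6), had 163145 CDS reads over the 14 libraries and 12 reads in the 5′UTR, which were found in 2 libraries only. Per nucleotide, its 5′UTR had 0.00413 of the CDS level, where the median transcript had 0.346. RefSeq gives Srebf1 curated start sites at 3 positions, and the counted transcript begins at the middle one, 60220627. Transcripts from the outer starts were not counted, so reads in their own 5′UTRs are not included in these values. As background, SREBP-1a and SREBP-1c arise from different first exons and share the rest of the message. Reads in the shared exons cannot be told apart by form. The 5′UTR length in the files, 61 nt, is shorter than the 84 nt of the annotation, so the start used for counting may not be this annotated one.

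Promoters of 9 of the 10 genes were in RefSeq's table (12 windows, from 250 bases before to 50 after each start, GRCm38.p6; Scd1 is not among them). The sterol regulatory element, the site SREBP binds, was searched as TCACNCCAC on both strands and lies in none of the 12 windows and in 1.24% of all 32851. The E-box CACGTG, which CLOCK and BMAL1 bind, was likewise in none, and in 7.15% of all. The CCAAT box, to which NF-Y binds beside SREBP, was searched as CCAAT on both strands and lies in 8 of the 12 windows, of 7 genes, and in 37.4% of all. The GC box GGGCGG, to which Sp1 binds, lies in 5 windows of 4 genes and in 35.7% of all. The CCAAT and GC box matches do not overlap each other, and a match is not a binding site. Windows of 30 bases with the CCAAT box in capitals (ATTGG where it lies on the other strand) are shown for Thrsp, Fasn and Acacb, whose footprints had the largest fitted swings, and for Srebf1 at its start farthest upstream, which is not that of the counted transcript.
Thrsp, chr7:97417585-97417614, minus strand: ggctgtgttgctCCAATggttgggctttgg
Thrsp, chr7:97417612-97417641, minus strand: ccaaacgctgggATTGGctcaaaacagggc
Fasn, chr11:120824592-120824621, minus strand: cggcctcggtgtCCAATtggtttcgatgtg
Fasn, chr11:120824620-120824649, minus strand: ccgcgcgccgccATTGGgccaccgagaacg
Acacb, chr5:114165419-114165448, plus strand: gtacaagggaccCCAATagccttgccccac
Srebf1, chr11:60222730-60222759, minus strand: ctgcgactgtctCCAATgcaagacaacctt

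In Thrsp the 2 boxes begin at -52 and -79 from the annotated start of the transcript, in Fasn at -62 and -90, and in Acacb at -87. The annotated Acacb transcript has a 5′UTR of 0 nt, so its -87 is counted from the start codon. The Acacb window may thus not lie at the start of transcription. The first Fasn box overlaps a match on the other strand, ATTGG from -59 to -55. In the Srebf1 window shown it begins at -166, and in Acly at 37, behind the start. The windows of Elovl6 and Acaca, which also passed the rhythm test, hold no CCAAT. In Me1 the match lies in the window of NM_001198933, and the window of the counted NM_008615 holds none. Both Srebf1 matches lie at the outer starts, and the window of the start at 60220627, that of the counted transcript, holds none. By the start of the counted transcript, the box was thus absent from 3 genes that passed (Elovl6, Acaca and Me1) and from Srebf1.

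Thrsp, a small nuclear and cytosolic protein (Spot 14) that promotes lipogenesis, had the largest fitted swing of the 9 genes tested. Its footprints were 193 and 91.8 CPM at CT0, 36.6 and 17.8 at CT4, 49.0 and 56.0 at CT8, 261 and 134 at CT12, 385 and 410.3 at CT16, 263 and 256 at CT20, and 125 and 119 at CT24. The 4 libraries of CT4 and CT8 were below all others, and the 2 of CT16 above all others. The mean of 398 ± 18.0 CPM at CT16 was 14.6 times that at CT4, 27.2 ± 13.3 CPM (SD, n = 2). The fitted peak was at CT17.3 ± 0.403 h, and the fitted peak-to-trough difference was 3.59 ± 0.437 on the log2 scale (edgeR adjusted p = 1.19e-05, SEs from a least-squares cosine).

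Among the enzymes, Acly comes first in the pathway and supplies cytosolic acetyl-CoA. Its footprints were 226 and 205 CPM at CT0, 120.5 and 92.9 at CT4, 75.4 and 106 at CT8, 111 and 76.2 at CT12, 127 and 181 at CT16, 249 and 366 at CT20, and 284 and 219 at CT24. The 6 libraries of CT20, CT24 and CT0 lay above the 8 others without overlap. Its peak was fitted at CT21.0 ± 0.485 h with a difference of 1.85 on the log2 scale, or 3.61-fold (edgeR adjusted p = 1.83e-05).

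Of the carboxylases, Acaca encodes the cytosolic enzyme that makes malonyl-CoA for synthesis, and Acacb the enzyme at the outer mitochondrial membrane, whose malonyl-CoA inhibits fatty acid import. Acaca had 49.2 and 43.4 CPM at CT0, 40.6 and 33.6 at CT4, 36.2 and 42.2 at CT8, 53.2 and 45.6 at CT12, 48.9 and 87.4 at CT16, 54.3 and 73.4 at CT20, and 59.1 and 49.5 at CT24. Its 4 libraries of CT4 and CT8 were the lowest, and CT16 replicate 2 and CT20 replicate 2 were the highest. A peak was fitted at CT17.9 ± 0.759 h with a difference of 0.91 on the log2 scale (edgeR adjusted p = 0.0065). The difference was 0.73 (adjusted p = 0.0253) without CT16 replicate 2 and 0.84 (adjusted p = 0.0177) without CT20 replicate 2. Leaving out the CT4 pair ended the call, with an adjusted p of 0.0548.

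Acacb moved more and later. It had 68.5 and 59.8 CPM at CT0, 36.9 and 33.0 at CT4, 18.1 and 21.3 at CT8, 27.3 and 21.9 at CT12, 25.9 and 29.6 at CT16, 60.9 and 83.5 at CT20, and 64.8 and 61.8 at CT24. The 6 libraries of CT20, CT24 and CT0, at 59.8 CPM or more, did not overlap with the 8 others, at 36.9 CPM or less. The fitted peak was at CT22.0 ± 0.414 h and the difference 1.87 on the log2 scale, or 3.65-fold, with the lowest adjusted p among the 9 genes tested (edgeR, 3.78e-06).

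The balance of the 2 carboxylases therefore changed over the day. In CDS footprints per kilobase, the log2 ratio of Acacb to Acaca was 0.42 and 0.40 at CT0, -0.20 and -0.09 at CT4, -1.06 and -1.04 at CT8, -1.02 and -1.11 at CT12, -0.98 and -1.61 at CT16, 0.12 and 0.13 at CT20, and 0.07 and 0.26 at CT24. Acacb had more footprints per kilobase than Acaca in all 6 libraries of CT20, CT24 and CT0, and fewer in all 8 others. The ratio peaked at CT0.0 ± 0.52 h with a fitted swing of 1.66 ± 0.20 (log2) (two-sided permutation test, 100000 shuffles of the time labels over 14 libraries, p = 0.00016). Library scaling cancels in this ratio. With each library left out, the difference stayed between 1.54 and 1.80. Of the 36 pairs among the 9 genes this was the 1 tested, and it was chosen after the peak times had been seen.

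**Figure D2:**
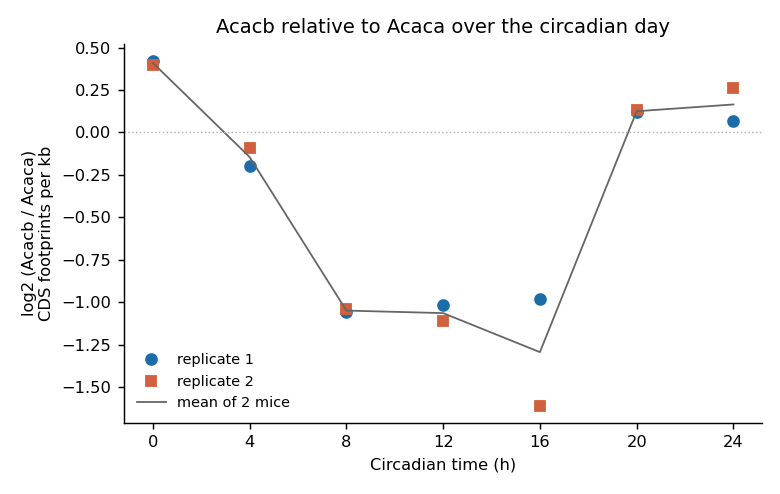
Log2 ratio of Acacb to Acaca, in CDS footprints per kilobase, against circadian time in hours. Symbols are replicates, the line joins means of 2 mice, and the dotted line marks equal density. The ratio was above 0 in all libraries of CT20, CT24 and CT0, and between -1.61 and -0.09 in the others.

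Fasn encodes the multi-domain synthase that builds palmitate. It had 666 and 499 CPM at CT0, 336 and 199 at CT4, 230.1 and 291 at CT8, 359 and 226 at CT12, 493 and 872 at CT16, 750.3 and 938 at CT20, and 672 and 413 at CT24. The 6 libraries from CT4 to CT12 were all below the 8 others, and the replicates of CT16 and CT24 were wide apart. The mean rose from 261 ± 43.3 CPM at CT8 to 844 ± 132 CPM at CT20 (SD, n = 2), or 3.24-fold. The fitted peak was at CT19.5 ± 0.551 h, with a difference of 1.90 on the log2 scale (edgeR adjusted p = 0.000103).

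Palmitate is lengthened by ELOVL6 and desaturated by SCD1. Elovl6 had 12.2 and 9.99 CPM at CT0, 7.78 and 6.16 at CT4, 7.22 and 7.97 at CT8, 17.7 and 14.6 at CT12, 22.5 and 24.5 at CT16, 12.0 and 22.1 at CT20, and 12.3 and 9.36 at CT24. The 4 libraries of CT4 and CT8 were the lowest and both of CT16 the highest, and CT12 was already above CT0. The cosine peaked at CT16.8 ± 0.428 h and the difference 1.77 on the log2 scale, or 3.40-fold (edgeR adjusted p = 1.83e-05).

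Scd1 had the most footprints of the 10 genes and a small swing. It had 1895 and 2025 CPM at CT0, 2155 and 1124 at CT4, 1365 and 1003 at CT8, 1573 and 1094 at CT12, 1833 and 1053 at CT16, 1895 and 2324 at CT20, and 1717 and 1624 at CT24. The replicates of CT4 and of CT16 were wide apart, and most times overlapped. With edgeR the adjusted p was 0.0785, with a fitted peak at CT21.8 ± 1.39 h and a difference of 0.70 on the log2 scale. It passed in 1 of 14 fits with a library left out (without CT4 replicate 1, adjusted p = 0.0329). It also passed with total-count scaling, with 0.0355 and a difference of 1.15, and with DESeq2's likelihood ratio test, with 0.0199.

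Me1, the malic enzyme that yields NADPH in the cytosol, had 69.6 and 79.4 CPM at CT0, 67.3 and 50.1 at CT4, 54.4 and 63.5 at CT8, 49.6 and 61.1 at CT12, 60.1 and 68.1 at CT16, 76.0 and 109 at CT20, and 74.3 and 71.7 at CT24. CT20 replicate 2 was the highest library, and the other times overlapped in part. The fitted peak was at CT20.8 ± 1.01 h with a difference of 0.62 on the log2 scale, or 1.53-fold (edgeR adjusted p = 0.0302). Leaving out 1 of 5 libraries ended this call, with adjusted p of 0.0532 (CT0 replicate 2), 0.0707 (CT8 replicate 1), 0.0676 and 0.0509 (CT12 replicates 1 and 2) and 0.0819 (CT20 replicate 2). It was also lost in 6 of 7 fits with a time point left out, with adjusted p from 0.0528 to 0.128. With total-count scaling the difference was 1.08 on the log2 scale.

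Me1 has a second transcript in the files, NM_001198933, which begins at chr9:86687277 on the minus strand where NM_008615 begins at 86695914 (GRCm38.p6). Its own 5′UTR of 302 nt had 0 reads in all 14 libraries, while the 164 nt of NM_008615 had 231. The 60 nt of coding sequence found only in NM_008615 held 6571 reads, between 242 and 780 a library. Over the exons they share, the fit of the second transcript gave a peak at CT20.8 and an adjusted p of 0.0589 in edgeR.

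Pnpla3, a lipase-like protein of lipid droplets, was at the limit of detection, with 136 reads in all. The counts were 33 and 37 at CT0, 0 and 4 at CT4, 0 and 4 at CT8, 0 and 0 at CT12, 3 and 8 at CT16, 0 and 22 at CT20, and 8 and 17 at CT24. Both CT0 libraries were above all others, and 5 libraries had no read, which allows up to 3 counts, or 0.0370 to 0.0717 CPM. Taken against a floor of 3 counts per library at CT12, the CT0 mean of 0.576 CPM was at least 12.9-fold higher. With a minimum of 1 count, edgeR gave an adjusted p of 0.0688 and a peak at CT22.1. The 5 adipocyte markers, all with reads, summed to 3.51 CPM in CT0 replicate 1, the highest library, to 0 in CT0 replicate 2 and to 1.04 CPM at most in the others. Their part in the Pnpla3 counts was not tested. Intervals from counts cover counting error only, since reads carried no molecular identifiers.

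The peaks of the 7 genes that passed fell in an order. Elovl6 (CT16.8), Thrsp (CT17.3) and Acaca (CT17.9) came first, Fasn (CT19.5) followed, and Me1 (CT20.8), Acly (CT21.0) and Acacb (CT22.0) were last. Fits to the 7 libraries numbered 1 and the 7 numbered 2, which come from different mice, gave Elovl6 at CT16.7 and CT16.9, Acaca at CT19.3 and CT17.4, Fasn at CT20.6 and CT18.8, and Acacb at CT22.4 and CT21.8. In both sets the order of Elovl6, Thrsp, Acaca, Fasn, Acly and Acacb was the same, while Me1 moved from CT22.7 to CT19.5. The sets are the same 14 libraries that gave the order, split by a number that does not pair them. The shared order is thus a description and no separate support. With total-count scaling Elovl6 and Thrsp both peaked at CT17.9, Acaca at CT19.4, Fasn at CT20.1, Acly at CT21.3, Me1 at CT21.6 and Acacb at CT22.2, so that Acaca then lay nearer to Fasn than to Thrsp, and Me1 followed Acly. At ± SE (0.403 to 1.01 h) neighbours in the order with TMM scaling overlapped, except Acaca with Fasn and Acly with Acacb, and the differences between peaks were not tested.

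**Figure D3:**
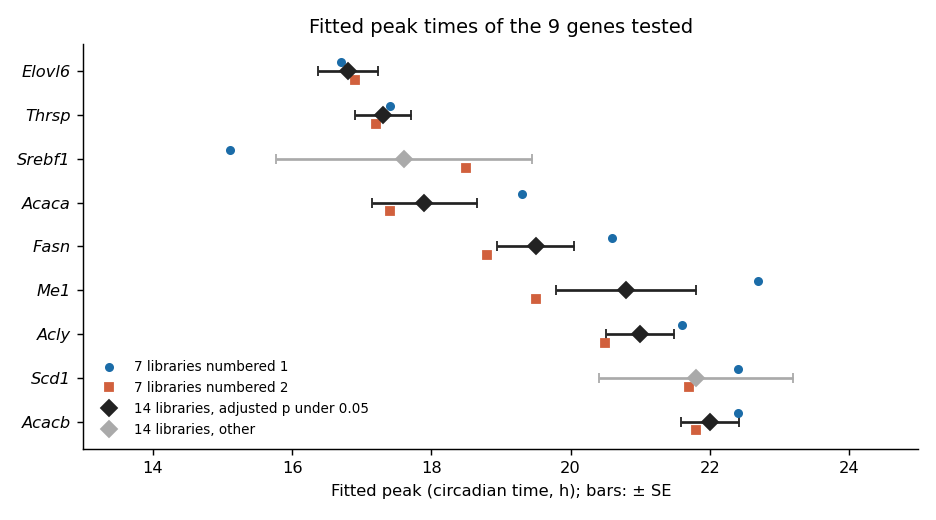
Fitted peak of each of the 9 genes tested, in hours of circadian time. Diamonds with bars are the fit to 14 libraries ± SE (black where the adjusted p was under 0.05, grey for Srebf1 and Scd1), and circles and squares the fits to the libraries numbered 1 and 2. The black diamonds run from CT16.8 to CT22.0.

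CT24 and CT0 are the same phase in different mice, 1 day apart, so the CT24 pair also spent longer in darkness. In edgeR 0% of the transcripts passed in this comparison (873 of 17299 at an unadjusted p under 0.05), and none of the 9 genes did. Their log2 differences, CT24 minus CT0, ran from -0.32 for Srebf1 to 0.23 for Acaca, with unadjusted p from 0.298 to 0.916 (edgeR).

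JTK_CYCLE, a rank test for rhythms that the study's methods name, gave nearly the same genes. On total-count CPM it passed 7 of the 9 genes at its adjusted P under 0.05 (22.2% of all transcripts), without Srebf1 (0.517) and Scd1 (0.0904). On TMM-scaled CPM it passed 8 (17.7% of all), with Scd1 at 0.0439 added and Srebf1 at 0.823. This P is adjusted within a transcript only.

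Levels were compared as CDS footprints per kilobase per 1000000 counts, since the genes differ in length. Scd1 had 1239 ± 327 (SD, n = 14), Thrsp 376 ± 279, Fasn 65.0 ± 32.3, Srebf1 56.3 ± 17.7, Acly 52.0 ± 26.2, Me1 39.1 ± 8.61, Elovl6 14.1 ± 6.29, Acaca 7.18 ± 2.02, Acacb 5.91 ± 2.93 and Pnpla3 0.120 ± 0.141. Only neighbours in this order were tested, by an exact sign-flip test of their log2 ratio over the 14 libraries (two-sided, 8 pairs). Fasn and Srebf1, Srebf1 and Acly, and Acly and Me1 did not pass, with exact adjusted p of 0.531, 0.344 and 0.0929. These tests pool times at which the direction of each pair differed. In CT8 replicate 1 Fasn had 30.1, Srebf1 56.0, Acly 22.4 and Me1 31.0. In CT20 replicate 1 they had 97.9, 47.7, 74.1 and 43.6. Replicate 2 of each time had the same directions. For Acaca and Acacb the exact adjusted p was 0.0709 (log2 ratio 0.41 ± 0.69, SD, n = 14), a test that pools times at which the ratio of this pair had opposite signs. Scd1 exceeded Thrsp in 13 of 14 libraries (exact adjusted p = 0.000488), and Thrsp exceeded Fasn, Me1 Elovl6, and Elovl6 Acaca in 14 of 14 (exact adjusted p = 0.000326 each). The unadjusted p of these 3, 0.00012207, is the smallest that 14 libraries allow.

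**Figure D4:**
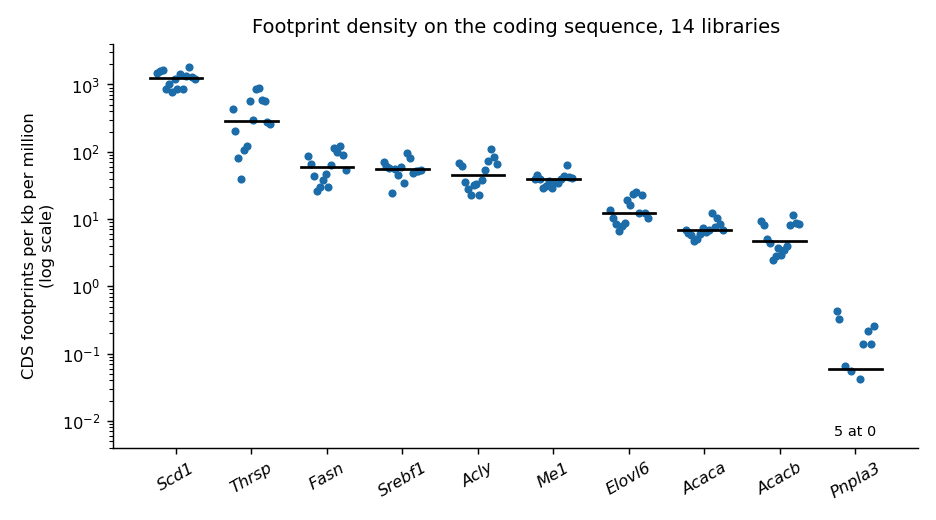
CDS footprints per kilobase per 1000000 counts (log axis) of the 10 genes in order of their mean, with 1 point per library and a bar at the median. The medians run from 1254 for Scd1 to 0.0598 for Pnpla3, which was at 0 in 5 libraries.

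Scd1 and Elovl6 had more of their footprints in the 5′UTR than the other 8 genes. These held 17.4% of the 5′UTR and CDS reads of Scd1 and 13.4% of those of Elovl6, where the median over 17023 transcripts was 3.79%. Per nucleotide, the 5′UTR had 0.753 of the CDS level in Scd1 and 0.873 in Elovl6, at percentiles 74.8 and 79.5 of 16838 transcripts. Acaca had 0.946, but from 146 reads in a 5′UTR of 26 nt, with 4 libraries at 0. In Fasn it had 0.127, in Acly 0.0542 and in Me1 0.0435, at percentiles 30.6, 22.0 and 20.5. The annotated 5′UTR of Elovl6 has 2 AUGs, each with a stop codon before the main start, and that of Scd1 has 0 AUGs. That of Fasn, of 527 nt, has 4 AUGs, each with a stop codon in the 5′UTR. These counts describe the sequences and do not place the reads, whose positions were not used.

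No rhythm in the share of 5′UTR reads passed the test in the 6 genes with enough reads. On the log2 scale, 5′UTR over CDS reads were tested for a 24 h rhythm with limma, which passed in 0% of 7640 transcripts (377 at an unadjusted p under 0.05). The adjusted p of the 6 genes ran from 0.809 to 0.949. Acaca had the lowest unadjusted p, 0.000982, with a fitted swing of 4.67 (log2), from the 146 reads of its short 5′UTR, and the others had unadjusted p from 0.241 to 0.805. In Scd1 the log2 ratio per nucleotide was -0.43 ± 0.26 (SD, n = 14), with CT20 replicate 1 highest at 0.09 and CT16 replicate 2 lowest at -1.13. In Elovl6 it was -0.24 ± 0.33, from -0.82 to 0.27, and the 2 libraries of CT24 were its lowest and its highest.

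Acly has 2 transcripts in the files, which differ by exon 14 of 29 in NM_001199296 (chr11:100503160-100503189, minus strand, GRCm38.p6), shown here because its reads are the difference between the 2 counts. The exon, coding throughout and in capitals, is 30 bases long.
Acly exon 14: ATTCAGTCCCAAGTCCAAGATCCCTGCAAG
It had 272 reads in the 14 libraries, from 0 to 34 a library, beside 139569 reads in the rest of the coding sequence. Per nucleotide this is 21.3% of the level of the rest. A footprint is about as long as this exon, so that the way reads at its edges were assigned bears on this value. For its density profiles the study placed each read at a single A-site nucleotide, with an offset set by read length. Whether the deposited counts were made in this way is not given in the sources used here.

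Other genes of the pathway were counted in 6 lists. Of 47 genes 46 could be tested, and 18 passed the rhythm test (39.1%, against 11.2% of genes with 1 transcript each), 13 of them with a peak between CT15 and CT23. The lists were chosen with earlier results known and describe only these genes. Left out in turn, single libraries moved the 18 to between 14 and 18, with 14 without CT16 replicate 2 and 18 without CT20 replicate 2.

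Of the proteins that process SREBP1, 3 of 5 passed, and they peaked at different times. Insig1, which retains SCAP and is itself an SREBP target, peaked at CT19.6 ± 0.386 h, from 41.5 ± 3.86 CPM at CT4 to 86.1 ± 2.46 CPM at CT20 (edgeR adjusted p = 4.64e-05). Insig2 peaked in the early day, at CT1.4 ± 0.631 h, from 12.5 ± 4.69 CPM at CT12 to 80.8 ± 5.35 CPM at CT4 (edgeR adjusted p = 0.000129). Scap, the escort, peaked at CT3.9 with a difference of 0.57 on the log2 scale (adjusted p = 0.0302, over 0.05 in 5 of 14 fits with a library left out). The site-1 and site-2 proteases Mbtps1 and Mbtps2 had adjusted p of 0.234 and 0.761.

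Of 8 transcription factors and partners 1 passed, or 12.5%, near the 11.2% over genes with 1 transcript each. It was Srebf2, the regulator of sterol synthesis. Its peak was at CT21.0 ± 0.866 h, with a difference of 0.73 and an adjusted p of 0.0168 in edgeR (0.066 at most without 1 library). The carbohydrate-responsive factor ChREBP (Mlxipl) had a fitted peak at CT1.2 and an adjusted p of 0.0954, and the LXR partner Rxra one of 0.172. The genes of carbon and NADPH supply passed in 6 of 10, all with peaks between CT17.4 and CT22.8. Of these calls, that of Tkt was lost in 11 and that of Pklr in 10 of 14 fits with a library left out (adjusted p up to 0.16 and 0.18), and both are named for this after their values were seen. Aacs, which activates acetoacetate for lipid synthesis, went from 12.3 ± 2.24 CPM at CT8 to 75.5 ± 3.28 CPM at CT20 (difference 2.82, edgeR adjusted p = 0.000694). Acss2, the cytosolic acetyl-CoA synthetase, went from 34.3 ± 3.04 CPM at CT12 to 86.6 ± 5.38 CPM at CT0 (edgeR adjusted p = 7.92e-05). Pgd of the pentose phosphate pathway peaked at CT22.1 ± 0.789 h, from 10.4 ± 1.25 CPM at CT12 to 22.1 ± 0.121 CPM at CT20 (edgeR adjusted p = 0.00397). Idh1 and Taldo1 did not pass, with adjusted p of 0.502 and 0.553.

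Of the elongases and desaturases 5 of 10 passed. Elovl3, which elongates saturated and monounsaturated chains, went from 22.4 ± 1.74 CPM at CT12 to 306 ± 2.99 CPM at CT24, with a peak at CT0.3 ± 0.283 h (difference 3.97, edgeR adjusted p = 2.25e-08). Elovl5, which elongates polyunsaturated chains, peaked at CT0.6 ± 0.52 h (edgeR adjusted p = 3.82e-05). Fads2 and Fads1, the delta-6 and delta-5 desaturases, peaked in the night at CT16.0 ± 0.536 h and CT19.8 ± 0.608 h (edgeR adjusted p = 0.000562 and 0.00678). Elovl1, the other of the 5 and named after its values were seen, peaked at CT20.8 ± 0.943 h (edgeR adjusted p = 0.0231, over 0.05 in 3 of 14 fits with a library left out). Elovl2 and Tecr had adjusted p of 0.856 and 0.968.

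Among 8 regulators of acetyl-CoA carboxylase and malonyl-CoA 3 passed. Trib3, a pseudokinase that promotes degradation of the carboxylase, peaked opposite to most of the synthesis genes, at CT8.1 ± 0.682 h (difference 3.03, edgeR adjusted p = 0.000444), with 4.70 ± 3.41 CPM at CT8 and 0.396 ± 0.161 CPM at CT24. Prkaa2, a catalytic subunit of AMP-activated kinase, peaked at CT16.2 ± 0.535 h (edgeR adjusted p = 0.00706). Mid1ip1, the paralogue of Thrsp that aids polymerisation of the carboxylase, peaked at CT18.1 ± 1.03 h (edgeR adjusted p = 0.0374, over 0.05 in 6 of 14 fits with a library left out). Malonyl-CoA decarboxylase, Mlycd, and Prkag1 did not pass (0.453 and 0.179). Of the 5 genes of the separate mitochondrial synthesis pathway 0 passed in edgeR, with unadjusted p from 0.1 to 0.839; Mecr and Acsf3 had adjusted p of 0.92 and 0.565.

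**Figure D5:**
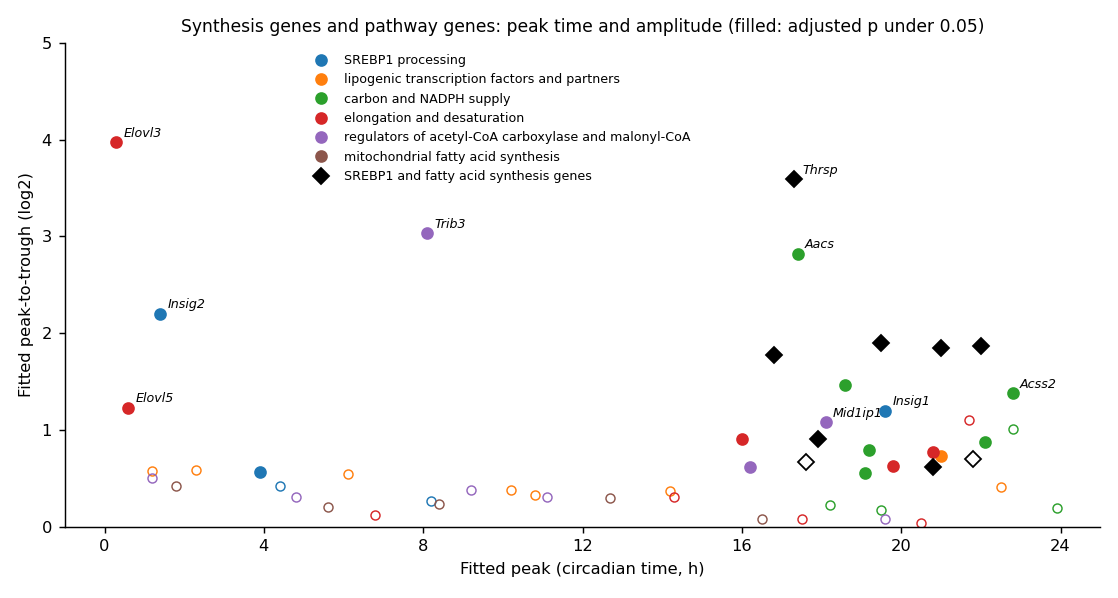
Fitted peak-to-trough difference (log2) against fitted peak (circadian time, hours) for the 9 synthesis genes tested (diamonds) and 46 genes of 6 pathway lists (circles, coloured by list). Filled symbols passed the rhythm test, and most of those of the lists above 1 on the log2 scale are named, as is Thrsp. Most filled symbols lie between CT15 and CT23, and Elovl3, Elovl5 and Insig2 lie near CT0.

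By pattern, the closest genes outside the 10 were listed for Srebf1 and Fasn over 8166 genes with a mean of at least 100 counts. For Fasn they were Insig1 (Pearson r = 0.953 of log2 CPM over 14 libraries), Lss (0.893), Asl (0.888), Cstf1 (0.879) and Pfkfb1 (0.875). For Srebf1 they were Mid1ip1 (0.859), Sqor (0.844), Mat1a (0.840), Gamt (0.803) and Hadh (0.798). Within the 9 genes tested, r was highest between Acacb and Acly (0.920) and between Elovl6 and Thrsp (0.916). Srebf1 had its highest r with Thrsp, 0.650, and its lowest with Acacb, 0.082. These values share libraries and scaling and are a description.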

How the data were processed

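For each of 14 libraries the authors deposited counts of reads for each RefSeq transcript, unnormalized, with CDS and both UTRs apart. By the study's methods, adapters were clipped, rRNA reads removed with Bowtie 2.1.0.0, the rest mapped to mm10, and exact matches kept with SAMtools 0.1.19.0. Reads of 26 to 32 nt were used for profiles. The counting of reads that fit several transcripts is not given in the sources used here. The labels place the counts of a further run of CT16 replicate 2 in the same deposited table, which was used as 1 library. Its nonzero counts were all even, and what made them so was not tested. With these counts halved, 7 genes and 1942 transcripts passed the rhythm test in edgeR.

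The counts of the 3 regions were added. Symbols came from the RefSeq gene table (27840 transcripts) and from GENCODE M21 links (116), and 211 transcripts stayed unnamed. The members and lists were chosen with earlier results of these data known. Rhythms were tested in R 4.3.3 with edgeR 4.0.16 (TMM, quasi-likelihood, Benjamini-Hochberg over 17299 transcripts that averaged 10 counts or more), the 5′UTR to CDS ratio with limma 3.58.1 (pseudocount 0.5), and alternatives with DESeq2 1.42.0 and with JTK_CYCLE rewritten in Python 3.11.15 with NumPy 2.4.6. P-values measure the spread between mice, except those of the sign-flip tests, whose 14 libraries also differ in time. Values are of the transcript with the highest mean count of a gene. All 10 genes were named, and of each list up to 4 genes that passed, by smallest p, and up to 2 that did not, by highest mean count, except 1 gene that is not reported here. SEs of peaks come from least-squares cosines of log2 CPM. The steps were tested on simulated data.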

Additional observations from a re-analysis of the deposited data

How the results depend on the processing

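With 2 mice per time, an SD rests on 2 values, and the sampling interval of 4 h over 1 day limits peak times. The 7 rhythmic genes were between 6 and 9 with each library left out and between 5 and 8 with each time left out. Among these fits, Pnpla3 was tested only where libraries with few reads of it were left out (8 of the former and 4 of the latter). Its calls there, 1 of the 8 genes without CT16 included, are thus no support. Fasn, Acacb, Acly, Elovl6 and Thrsp passed under every alternative run for the rhythm test. The number of transcripts passing, 1947, was 1499 to 2062 with each library left out, 1159 and 1059 without CT8 and CT12, 1250 with 1 transcript per gene, and 3840 and 3069 with JTK_CYCLE on total-count and TMM-scaled CPM. In the comparison of the 7 times, total-count scaling gave 2197 transcripts in place of 1225 and 8 genes in place of 5. For CT24 against CT0 it gave 1 transcript in place of 0, and leaving out libraries gave 0 to 2. The replicate numbers did not pair the libraries (21 pairs of times, r from -0.0607 to 0.187, 3 over 0.1). With the replicate block 8 genes passed the rhythm test, Scd1 (0.0313) being added, and 6 transcripts passed for CT24 against CT0. The log2 ratio of Acacb to Acaca, for which alternatives were chosen after seeing the data, as for the list genes and the order of levels, had a swing of 1.54 to 1.80 with each library left out. Over the 9 genes, the 46 list genes and all alternatives of the rhythm test, 1749 of 1870 values kept their side of the threshold, 96 lost a call, 25 gained one and 0 were reversed. The causes of these changes were not tested.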
